A study of Homo sapiens with 4 samples.

Results

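The 9 genes described here encode the MHC class I pathway: the heavy chains HLA-B, HLA-C, HLA-E and HLA-F, the light chain B2M, the peptide transporter subunits TAP1 and TAP2, tapasin (TAPBP) and the transactivator NLRC5. They were chosen by gene symbol from a deposited table of 35371 symbols, and all 9 were found. All 9 had a mean of at least 1 TPM (a transcript level scaled for length and to a library total), as did 13063 symbols in all. The listed TPM summed to between 912781 and 918646 per library, so the columns as deposited do not share one exact total. The RNA is from A2780, a human line established from ovarian cancer and grown here in 2D culture. Cells given GD-07, which the series text calls a MYC inhibitor, gave 2 libraries, and control cells gave 2 libraries. Both groups were grown in the same serum-containing medium, and the labels list no genetic change. The series text names a vehicle for the controls, while the sample labels list their treatment as none, and neither dose nor time is given. Nothing in the labels says that replicates were separate cultures. The p-values therefore reflect library-to-library spread, part or all of which may be technical.

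MHC class I molecules show short peptides from inside the cell to cytotoxic T cells and to natural killer cells. Peptides cut by the proteasome are carried into the endoplasmic reticulum by the TAP1-TAP2 transporter, and tapasin holds empty heavy chains beside it until a peptide binds. Most heavy chains need B2M to fold and to reach the cell surface, and HLA-F is known for also reaching it in other forms. NLRC5 switches on class I genes by joining factors that sit on a shared promoter module, and MYC is known in several cancers for holding the pathway down.

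Depth is unknown because TPM keeps no read count, and no counting interval or detection floor can be given. GD-07 replicate 2 stood apart from the other libraries, with 6.52% of its TPM from mitochondrially encoded transcripts and 14683 symbols listed at 0. The other 3 libraries had between 2.52% and 4.36% and between 11598 and 12346. Of the ovarian and epithelial markers, KRT7 was listed at 0 in every library, PAX8 stayed at or under 0.121 TPM and WT1 at or under 0.00997 TPM, while KRT18 lay between 4.40 and 5.82 TPM. EPCAM had 2.12 and 4.29 TPM in GD-07 libraries, against 1.41 and 1.48 TPM in controls. Its log2 fold change was 0.73 and did not pass (limma adjusted p = 0.141). The 9 markers of this list summed to 9.42 and 9.87 TPM in GD-07 libraries, against 6.73 and 7.51 TPM in controls. Of these 2 were kept, and both had positive log2 fold changes. The 10 leukocyte markers summed to 8.14 and 10.1 TPM in GD-07 libraries, against 7.86 and 9.93 TPM in controls, with CD3E and MS4A1 listed at 0 throughout. The 9 fibroblast and endothelial markers summed to 26.8 and 41.8 TPM in GD-07 libraries, against 56.9 and 45.1 TPM in controls. Of these 5 were kept, none passed and all 5 had negative log2 fold changes (median -0.49), 3 of them at an unadjusted limma p under 0.05. COL1A1, a collagen chain, made up most of that sum, with 17.9 and 30.0 TPM in GD-07 libraries, against 39.0 and 31.1 TPM in controls. Its log2 fold change was -0.56 over all libraries, and GD-07 replicate 1 was the lower. The defining endothelial markers VWF and CDH5 stayed at or under 0.0699 TPM. The part of these markers in the results below was not tested.

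In cells given GD-07, B2M fell and HLA-F rose, and the other 7 genes did not pass the test. Levels were compared on the log2(TPM + 1) scale with limma over all 13063 kept genes, and a gene passed when its p, adjusted by the Benjamini-Hochberg method, was under 0.05. Passing in either direction was the case for 5.21% of all kept genes, for 2.02% as higher and for 3.19% as lower. Of the 9 genes, 1 was higher and 1 was lower, the median log2 fold change was 0.22, and over all kept genes it was -0.04. Libraries of the 2 groups did not overlap for 8 of the 9 genes, 5 with both GD-07 values above the controls and 3 with both below. Over all kept genes the groups did not overlap for 55.8%, with 25.3% above and 30.5% below, so this separation by itself is common in these libraries.

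**Figure D1:**
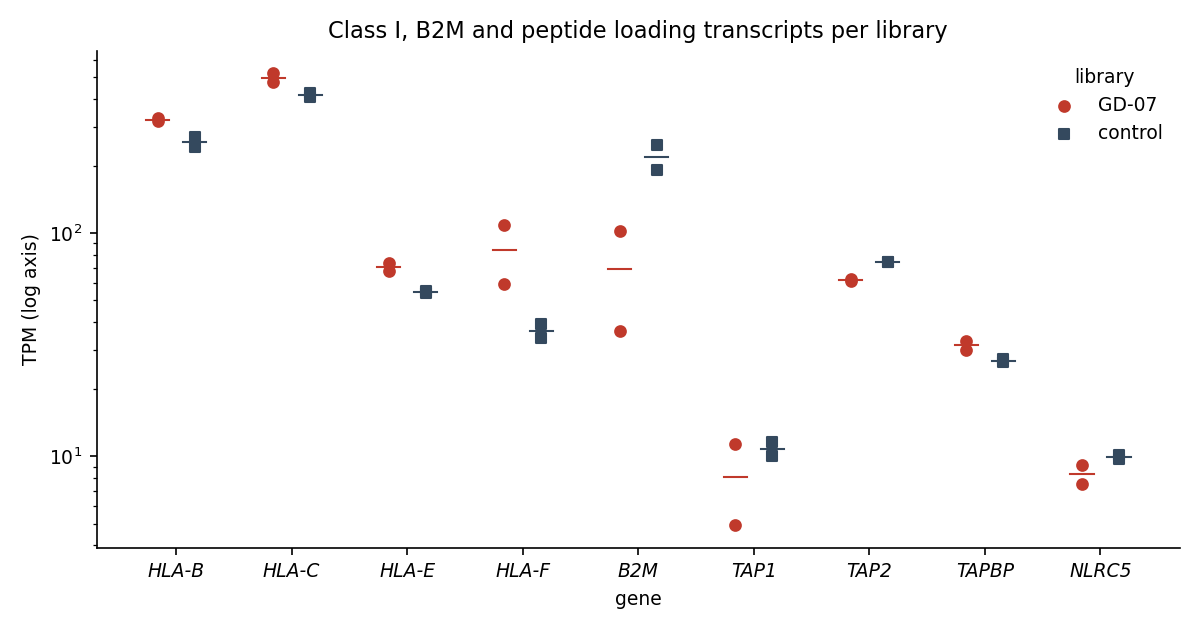
TPM of the 9 genes on a log axis, with GD-07 libraries as circles, control libraries as squares and short lines at the group means (n = 2 each). B2M is the gene whose GD-07 values lie farthest below the controls, HLA-F is the one farthest above them, and the GD-07 values of both are spread widely.

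The promoters of 3 heavy chains and of B2M are shown because these genes are known for a shared promoter module. That module is background and not a result here. The GD-07 values of these heavy chains lay above the controls and those of B2M below them. RefSeq entries on GRCh38.p14 were found for 7 of the 9 genes, and those of HLA-E and NLRC5 are not shown. Each line gives the 180 bases before the annotated start in reading direction, from the reference genome and not from A2780. Capitals mark matches, on either strand, to CCAAT (the core read by NF-Y), TGACG (the core of a cyclic AMP response element), GAAA and GAAA with any 2 bases between (the interferon core, read by interferon-regulated factors), GAA and GAAA with any 2 bases between (the short interferon core), GGG and CC with any 5 bases between (a loose NF-kappaB site) and CACGTG (the E box read by MYC and MAX). The windows are chr6:31357180-31357359 on the minus strand for HLA-B, chr6:31272093-31272272 on the minus strand for HLA-C, chr6:29723254-29723433 on the plus strand for HLA-F and chr15:44711337-44711516 on the plus strand for B2M.
HLA-B: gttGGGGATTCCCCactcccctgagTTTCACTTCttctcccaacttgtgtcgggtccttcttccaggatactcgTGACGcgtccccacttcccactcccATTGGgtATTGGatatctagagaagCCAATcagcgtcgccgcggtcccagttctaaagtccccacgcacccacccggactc
HLA-C: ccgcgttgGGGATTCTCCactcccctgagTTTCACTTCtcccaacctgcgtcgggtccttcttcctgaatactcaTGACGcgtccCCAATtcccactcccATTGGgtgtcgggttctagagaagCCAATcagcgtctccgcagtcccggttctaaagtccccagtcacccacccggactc
HLA-F: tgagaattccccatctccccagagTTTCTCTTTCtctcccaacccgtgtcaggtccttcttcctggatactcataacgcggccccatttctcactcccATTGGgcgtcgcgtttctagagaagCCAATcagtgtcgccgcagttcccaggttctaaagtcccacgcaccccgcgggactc
B2M: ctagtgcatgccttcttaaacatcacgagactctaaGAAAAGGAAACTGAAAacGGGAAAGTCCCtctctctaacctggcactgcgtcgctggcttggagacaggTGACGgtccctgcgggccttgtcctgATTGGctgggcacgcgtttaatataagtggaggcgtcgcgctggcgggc

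All 4 windows hold an interferon-type core, and each has a CCAAT core downstream of it. The HLA-F window shared 82.5% of aligned positions with HLA-B and 80.7% with HLA-C, while B2M shared 47.2% with HLA-F. By the same alignment HLA-F shared 47.2% with TAPBP and 52.6% with TAP2, so the value for B2M is no sign of likeness. TGACG matched in HLA-B from -106 to -102, in HLA-C from -105 to -101 and in B2M from -75 to -71 relative to the start. HLA-F held neither these letters nor an NF-kappaB match in its window. The CACGTG letters were in none of the 8 windows of the 9 genes, and in 5.12% of all 35116 promoter windows of this length. The interferon core was in 5 of the 8 windows and in 2.15% of all. The short interferon core, which was chosen after these sequences were seen, was in 3 of the 8 and in 4.57% of all. CCAAT was in 4 of the 8 and in 26.2% of all, TGACG in 4 and 17.3%, and the NF-kappaB match in 7 and 47.2%. Interferon core matches overlap each other in B2M, TAP1 and TAPBP, and in TAP2 one overlaps a short core. The NF-kappaB pattern also matches on both strands at nearly the same place in HLA-B and B2M. A match is a run of letters and no evidence of binding.

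**Figure D2:**
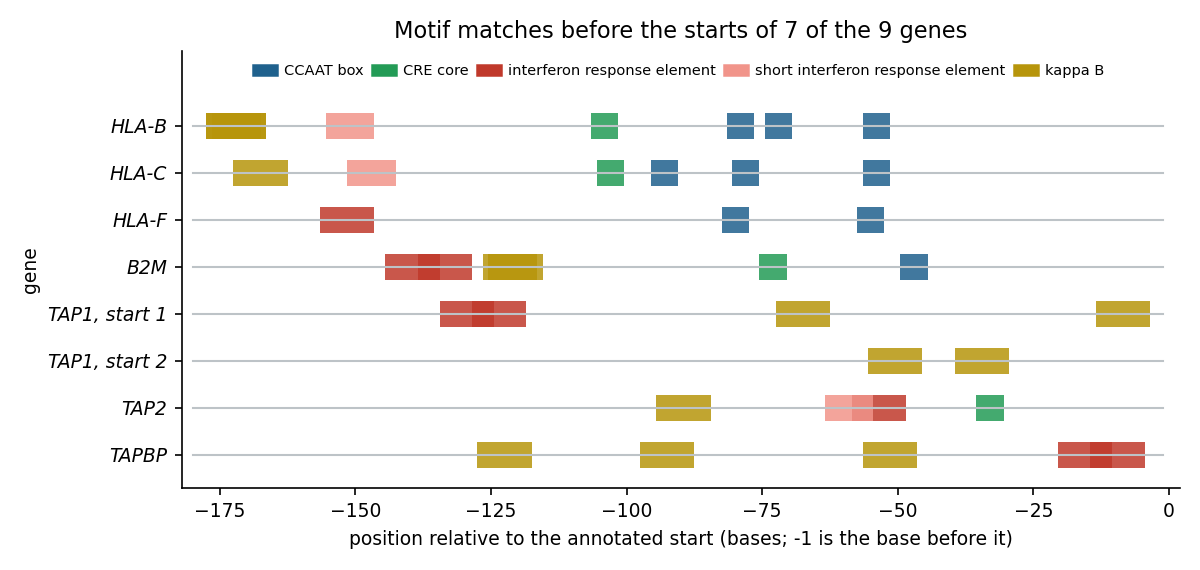
Motif matches in the 180 bases before the starts of 7 genes, TAP1 with 2 annotated starts, with position relative to the start on the horizontal axis and 1 row per start. HLA-B, HLA-C and HLA-F each have CCAAT matches (blue) starting within -82 to -80 and within -57 to -56, HLA-B has a further one at -74 and HLA-C one at -95, and no row holds an E box.

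B2M, the light chain that pairs with the class I heavy chains, had 102 and 36.4 TPM in GD-07 libraries, against 247 and 192 TPM in controls. Both GD-07 values lay under both controls, and GD-07 replicate 2 was the lower. The means were 69.2 ± 46.4 TPM with GD-07 and 219 ± 39.3 TPM in controls (SD, n = 2 each), and the log2 fold change was -1.82 with a standard error of 0.38 (limma adjusted p = 0.0339). Only 16 of the 13063 kept genes had a more negative fold change, since B2M ranked 17 in that order. B2M (ENSG00000166710) spans 44711487 to 44718877 of chromosome 15, plus strand, in GRCh38. In controls its mean was above that of 94.9% of kept genes, and with GD-07 above that of 84.0%. In a bulk sample fewer cells of a type and less RNA per cell cannot be told apart.

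Leaving out GD-07 replicate 2, the library with the high mitochondrial share, gave B2M a log2 fold change of -1.09. Leaving out GD-07 replicate 1 gave -2.55. Each of these fits keeps 1 GD-07 library, so the wide spread between the GD-07 libraries does not enter its test. Only the fold changes are therefore given. The part of the composition of GD-07 replicate 2 in the result was not tested. The call of B2M ended after median-ratio rescaling (limma adjusted p = 0.0534), after quantile normalization (0.0591) and without limma's intensity trend (0.0627). Fold changes in these settings lay between -1.82 and -1.77.

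Heavy chain transcripts lay on the other side of the controls, and HLA-F was the one that rose. HLA-F, a nonclassical heavy chain known as a ligand of natural killer cell receptors, had 59.2 and 109 TPM in GD-07 libraries, against 33.8 and 39.3 TPM in controls. Both GD-07 values were above both controls, and again GD-07 replicate 2 was the farther. The means were 84.2 ± 35.5 TPM with GD-07 and 36.6 ± 3.89 TPM in controls (SD, n = 2 each). On the log2 scale HLA-F rose by 1.12 ± 0.25 (limma adjusted p = 0.0422), rank 94 from the top among all kept genes. Leaving out GD-07 replicate 2 gave 0.68 and leaving out GD-07 replicate 1 gave 1.56. Here too the spread between the GD-07 libraries does not enter the test of either fit. The call of HLA-F ended after quantile normalization (limma adjusted p = 0.0626) and without limma's trend (0.0731).

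HLA-B and HLA-C are the classical heavy chains that present peptides to T cells, and neither passed. HLA-C, the most abundant of the 9 in both groups, had 520 and 476 TPM in GD-07 libraries, against 408 and 424 TPM in controls. Its log2 fold change was 0.26 ± 0.15 (limma adjusted p = 0.312). HLA-B had 328 and 318 TPM in GD-07 libraries, against 243 and 269 TPM in controls, and its log2 fold change came to 0.34 ± 0.14 (0.188 as limma adjusted p). The GD-07 values of both genes were above both controls, by a ratio of means of 1.20 for HLA-C and 1.26 for HLA-B.

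HLA-E, which shows leader peptides of other class I chains to an inhibitory receptor of natural killer cells, had 67.9 and 73.4 TPM in GD-07 libraries, against 53.8 and 54.9 TPM in controls. The groups did not overlap, and the log2 fold change of 0.37 ± 0.14 did not pass (limma adjusted p = 0.152). No scaling or left-out library changed the direction of HLA-B, HLA-C or HLA-E, and none of the alternatives run gave them a call. All 4 heavy chains had GD-07 values above the controls, which 25.3% of kept genes also had.

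The 4 heavy chains share sequence, so their values are not fully separate. Of the distinct 31-base words in the GENCODE 29 transcripts of HLA-C, 10.4% also occur in HLA-B transcripts, and 8.86% of those of HLA-B occur in HLA-C. For HLA-F, 0.536% occur in HLA-B, 0.938% in HLA-C and 1.41% in HLA-E, but 26% occur in some other gene of any kind. For TAP2 that share is 31.7% and for TAP1 14%. For B2M 1.79% occur in any other gene. The annotated span of HLA-B, from 31269491 to 31357188 on chromosome 6, covers most of HLA-C, from 31268749 to 31272130, on the same strand. How reads were divided between such transcripts, and between reference and A2780 alleles, is not given in the sources used here, so the split of TPM among heavy chains is uncertain.

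Set against each other, heavy and light chain transcripts stood in another proportion in both GD-07 libraries than in the controls. The summed level of the 4 heavy chains was 976 and 976 TPM in GD-07 libraries, against 738 and 787 TPM in controls. Divided by B2M of the same library, the sum came to 9.56 and 26.8 in GD-07 libraries, against 2.99 and 4.11 in controls. This ratio does not depend on how a library is scaled. Both GD-07 ratios exceeded both controls. That order follows from the heavy chain and B2M values given above and is no separate support for them. With 2 libraries in each group an exact permutation test cannot go below a p of 0.333, so none is given. HLA-F made up 6.07% and 11.2% of the heavy chain sum in GD-07 libraries, against 4.58% and 5.00% in controls, and HLA-C made up between 48.7% and 55.3% in every library.

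**Figure D3:**
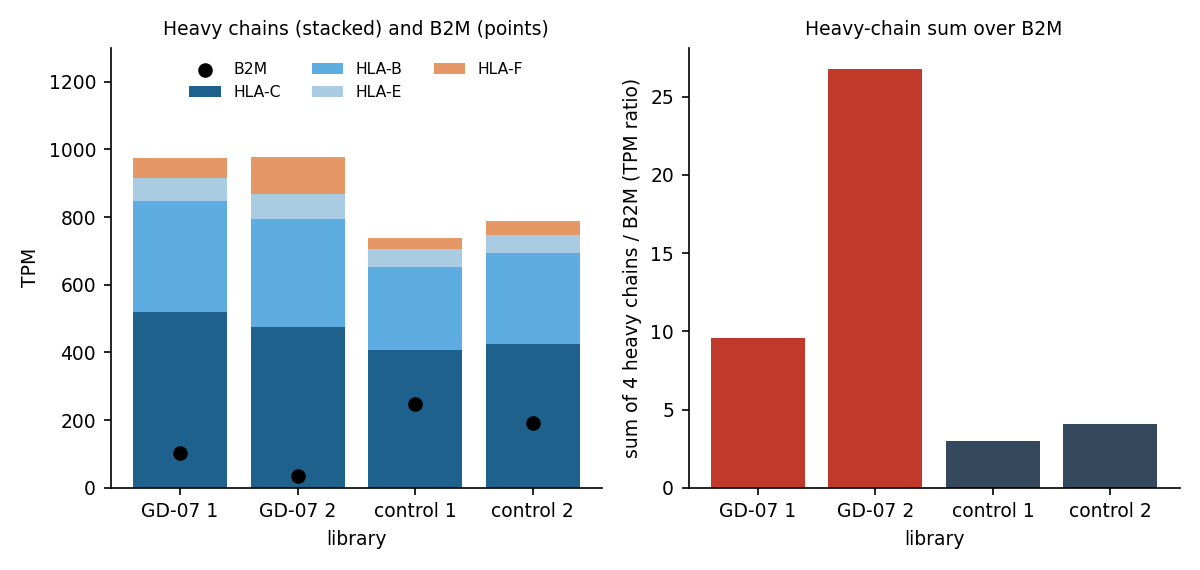
Left, TPM of HLA-C, HLA-B, HLA-E and HLA-F stacked per library, with B2M as points on the same axis. Right, the heavy chain sum divided by B2M, which is 9.56 and 26.8 in GD-07 libraries and 2.99 and 4.11 in controls.

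Among the loading genes no change passed. TAP2 had 61.3 and 62.2 TPM in GD-07 libraries, against 74.6 and 74.7 TPM in controls. Replicates of TAP2 were close and the groups did not overlap, but its log2 fold change was -0.27 ± 0.14 (limma adjusted p = 0.267). TAP1, its partner in the transporter, had 4.92 and 11.3 TPM in GD-07 libraries, against 10.0 and 11.6 TPM in controls. GD-07 replicate 2 lay between the controls, so TAP1 was the one gene of the 9 whose groups overlapped, and its log2 fold change was -0.47 ± 0.31 (limma adjusted p = 0.389). TAP1 had a log2 fold change of -0.99 without GD-07 replicate 2 and one of 0.063 without GD-07 replicate 1. The spread between the GD-07 libraries does not enter the test of either fit, so only fold changes are given. TAP2 transcripts exceeded those of TAP1 in every library, by a ratio of 12.5 and 5.50 in GD-07 libraries and of 7.46 and 6.43 in controls.

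Tapasin (TAPBP), which bridges heavy chains to the transporter, had 29.9 and 32.9 TPM in GD-07 libraries, against 26.4 and 27.3 TPM in controls (log2 fold change 0.22 ± 0.16, limma adjusted p = 0.42). Both GD-07 values were above the controls by a small margin. NLRC5, the transactivator of class I genes, had 7.52 and 9.13 TPM in GD-07 libraries, against 10.1 and 9.71 TPM in controls (log2 fold change -0.23 ± 0.19, limma adjusted p = 0.494). NLRC5 (ENSG00000140853), on chromosome 16 from 56989485 to 57083531, plus strand, was the lowest of the 9 genes in controls.

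The promoters of the transporter and of tapasin are shown for their repeated interferon-type cores, with the same marking as above. The windows are chr6:32853705-32853884 for the first of 2 annotated starts of TAP1, chr6:32838740-32838919 for TAP2 and chr6:33314079-33314258 for TAPBP, all on the minus strand.
TAP1: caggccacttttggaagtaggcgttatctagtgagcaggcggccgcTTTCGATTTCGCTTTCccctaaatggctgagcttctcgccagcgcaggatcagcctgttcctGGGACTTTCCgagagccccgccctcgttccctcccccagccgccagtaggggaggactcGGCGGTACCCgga
TAP2: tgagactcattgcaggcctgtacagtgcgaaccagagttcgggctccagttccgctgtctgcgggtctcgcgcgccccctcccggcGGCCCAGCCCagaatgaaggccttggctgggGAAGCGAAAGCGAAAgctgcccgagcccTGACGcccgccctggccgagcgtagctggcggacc
TAPBP: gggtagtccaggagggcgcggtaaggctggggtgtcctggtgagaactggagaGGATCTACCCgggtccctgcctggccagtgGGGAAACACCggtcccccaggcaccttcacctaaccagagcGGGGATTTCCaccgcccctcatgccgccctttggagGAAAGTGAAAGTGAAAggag

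None of these 3 windows holds CCAAT, whereas the interferon core matched in each, in TAPBP from -20 to -11 and from -14 to -5. In TAP1 the matches are read on the other strand, from -134 to -125 and from -128 to -119. The fold changes of these 3 genes, -0.47, -0.27 and 0.22 in the same order, did not pass.

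The order of the 9 levels differed between the groups mainly through B2M and HLA-F. With GD-07 the means, per length as TPM, ran from HLA-C (498) and HLA-B (323) to HLA-F (84.2), HLA-E (70.7), B2M (69.2), TAP2 (61.7), TAPBP (31.4), NLRC5 (8.33) and TAP1 (8.11). In controls they ran from HLA-C (416), HLA-B (256) and B2M (219) to TAP2 (74.6), HLA-E (54.3), HLA-F (36.6), TAPBP (26.8), TAP1 (10.8) and NLRC5 (9.91). With GD-07 the libraries of HLA-F, HLA-E, B2M and TAP2 overlap along the order, as do those of NLRC5 and TAP1. In controls those of HLA-B and B2M overlap, and those of TAP1 and NLRC5.

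Of 83 genes in 10 related lists, 69 were kept, 4 rose and 65 did not pass. That is 5.80% of them, beside 5.21% of all kept genes, with a median log2 fold change of -0.03. None of the 9 partners of peptide loading and trimming passed. ERAP1, which trims peptides in the endoplasmic reticulum, had 6.34 and 7.69 TPM in GD-07 libraries, against 12.1 and 8.18 TPM in controls (limma adjusted p = 0.251). PDIA3, which pairs with tapasin, had 3.37 and 7.01 TPM in GD-07 libraries, against 3.58 and 3.22 TPM in controls (limma adjusted p = 0.388). None of 4 kept immunoproteasome and PA28 genes passed, and PSMB8 was under the filter at no more than 0.358 TPM. PSME1, a subunit of the PA28 activator, had 131 and 123 TPM in GD-07 libraries, against 94.0 and 94.2 TPM in controls (limma adjusted p = 0.101). PSMB10, a catalytic subunit of the immunoproteasome, had 59.0 and 36.7 TPM in GD-07 libraries, against 51.6 and 67.2 TPM in controls. Single libraries decided some of these: with GD-07 replicate 2 left out PSME1 had a limma adjusted p of 0.0472 and passed, and PDIA3 (0.0399) and PSMB10 (0.0271) passed without GD-07 replicate 1.

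The 3 constitutive catalytic subunits had fold changes between -0.21 (PSMB5) and -0.11 (PSMB7), and none passed. None of 7 cytosolic peptidases passed. THOP1, which destroys peptides before transport, had 216 and 139 TPM in GD-07 libraries, against 259 and 261 TPM in controls (limma adjusted p = 0.118), and NRDC had 129 and 118 TPM, against 104 and 98.4 TPM in controls (0.235). THOP1 passed, as lower, when GD-07 replicate 1 was left out (limma adjusted p = 0.00116). Of 12 kept class I promoter factors none passed, 10 had negative fold changes and the median was -0.35. Over all kept genes 7026 of 13063 had negative fold changes, with a median of -0.04. ATF1, a factor of the CREB family, had 12.7 and 13.6 TPM in GD-07 libraries, against 23.9 and 17.4 TPM in controls (limma adjusted p = 0.104). NFKB1 had 1.92 and 2.90 TPM in GD-07 libraries, against 5.88 and 3.41 TPM in controls (limma adjusted p = 0.149). CIITA, the class II counterpart of NLRC5, was under the filter, with no value above 0.471 TPM.

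Of 9 kept genes of interferon reception, JAK1 rose and 8 did not pass. JAK1, a kinase bound to interferon receptors, had 5.85 and 9.37 TPM in GD-07 libraries, against 2.50 and 2.45 TPM in controls (log2 fold change 1.28 ± 0.24, limma adjusted p = 0.0276). The GD-07 values of JAK1 lay above both controls. IRF1, an activator of class I promoters, had 7.02 and 7.51 TPM in GD-07 libraries, against 7.40 and 6.99 TPM in controls.

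**Figure D4:**
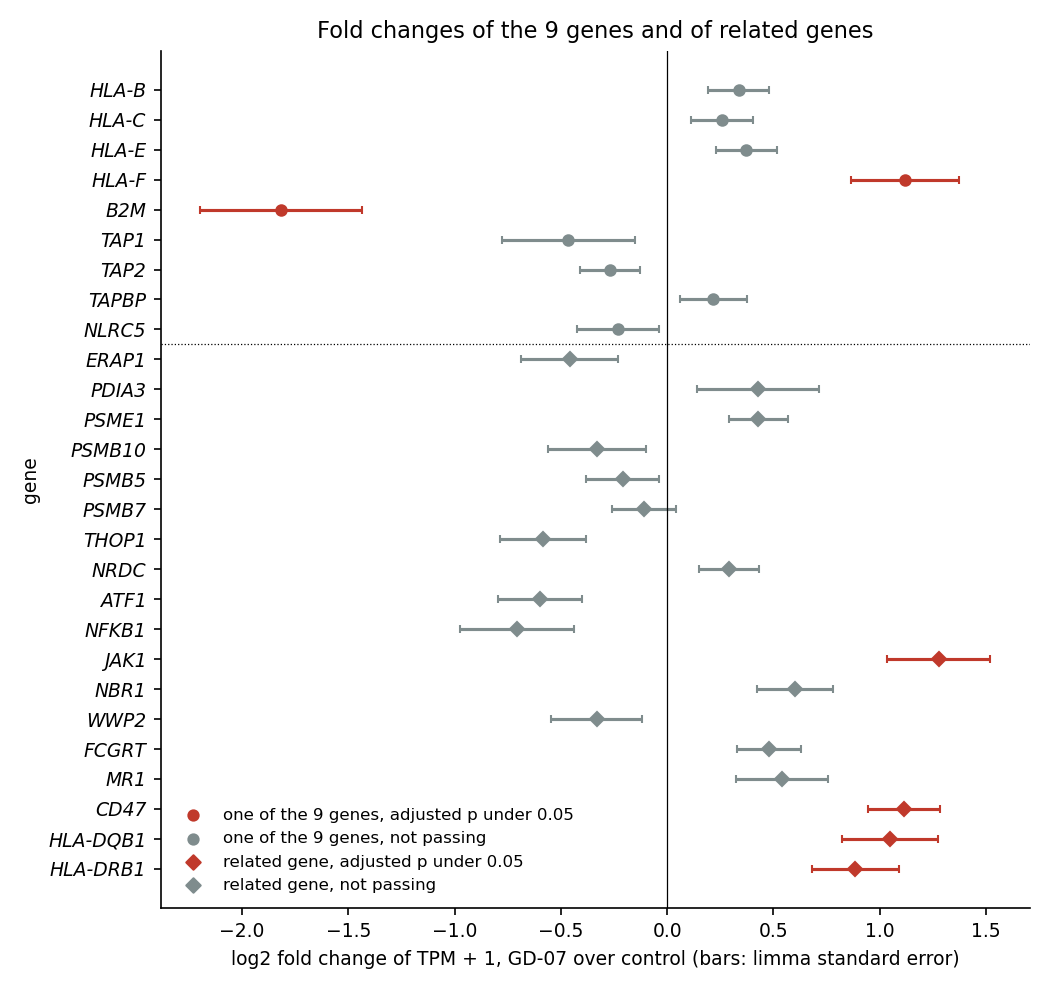
Log2 fold changes of TPM + 1, GD-07 over control, with limma standard errors as bars. The 9 genes are circles above the dotted line, named genes of the related lists are diamonds below it, and red marks those past the threshold: B2M at -1.82, HLA-F at 1.12, JAK1 at 1.28, CD47 at 1.11, HLA-DQB1 at 1.05 and HLA-DRB1 at 0.89.

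None of 9 reported negative regulators of class I passed. NBR1, an autophagy receptor reported to carry class I molecules to lysosomes, had 24.4 and 28.9 TPM in GD-07 libraries, against 18.8 and 15.7 TPM in controls (limma adjusted p = 0.0812), and WWP2, a ubiquitin ligase, had 10.1 and 10.0 TPM, against 15.7 and 10.6 TPM in controls (0.373). NBR1 passed, as higher, after median-ratio rescaling (limma adjusted p = 0.0474), after quantile normalization (0.044) and without GD-07 replicate 1 (0.0366). Other chains that pair with B2M did not pass either. FCGRT, the neonatal Fc receptor, had 56.1 and 49.6 TPM in GD-07 libraries, against 37.3 and 38.0 TPM in controls (limma adjusted p = 0.094), and it passed without GD-07 replicate 2 (0.0468). MR1, which presents vitamin B metabolites, had 7.04 and 9.72 TPM in GD-07 libraries, against 5.71 and 5.07 TPM in controls (limma adjusted p = 0.167). Both had GD-07 values above the controls, as 25.3% of all kept genes did. HFE, an iron regulator and the third kept gene of that list, had 6.63 and 9.25 TPM in GD-07 libraries, against 9.94 and 7.32 TPM in controls, and its groups overlapped. Of the 7 genes on that list CD1A and CD1D were listed at 0 in every library and CD1B and CD1C were under the filter.

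Of 6 kept ligands read by immune cells, CD47 rose and 5 did not pass. CD47, which is read by macrophages as a signal against engulfment and not by T or natural killer cells as a stress ligand, had 48.2 and 58.3 TPM in GD-07 libraries, against 21.9 and 26.1 TPM in controls (log2 fold change 1.11 ± 0.17, limma adjusted p = 0.0197). For the stress ligand MICA the groups overlapped, and the log2 fold change came to 0.10 ± 0.17 (0.756 as limma adjusted p). Of 7 kept class II genes, HLA-DQB1 and HLA-DRB1, beta chains of class II molecules, rose at low levels. HLA-DQB1 had 3.82 and 4.70 TPM in GD-07 libraries, against 1.25 and 1.86 TPM in controls (limma adjusted p = 0.0367). HLA-DRB1 had 8.26 and 7.90 TPM in GD-07 libraries, against 3.46 and 4.41 TPM in controls (limma adjusted p = 0.0436). HLA-DRA, the alpha chain partner of HLA-DRB1, was listed at 0 in 3 libraries and at 0.104 TPM in control replicate 2. Without control replicate 1 neither beta chain passed (limma adjusted p 0.188 and 0.27), and HLA-DRB1 also did not pass without GD-07 replicate 2 (0.0584) or after quantile normalization (0.0516).

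The 7 of the 9 genes that are on chromosome 6 lie within 3.59 megabases, from 29722775 to 33314387, and the span was read as a whole. From low to high coordinates HLA-F (ENSG00000204642) spans 29722775 to 29738528 and HLA-E (ENSG00000204592) spans 30489467 to 30494205, both on the plus strand. HLA-C (ENSG00000204525) and HLA-B (ENSG00000234745) follow on the minus strand. Beyond them TAP2 (ENSG00000204267) spans 32821833 to 32838780, TAP1 (ENSG00000168394) 32845209 to 32853978 and TAPBP (ENSG00000231925) 33299694 to 33314387, all on the minus strand. Of 106 kept genes there, 9 rose and 4 fell, which is 12.3% beside 5.21% over all kept genes, with a median log2 fold change of 0.07. The difference between these shares was not tested, and neighbouring genes are not independent of each other. NEU1, a lysosomal sialidase, had 58.3 and 65.5 TPM in GD-07 libraries, against 27.9 and 24.1 TPM in controls (log2 fold change 1.22 ± 0.16, limma adjusted p = 0.0128). COL11A2, a collagen chain, rose by 1.20 ± 0.20 and HLA-DQB1 by 1.05 ± 0.23 on the log2 scale. The zinc finger gene ZBTB12 fell by 0.98 ± 0.18 and the readthrough ATP6V1G2-DDX39B, which may share reads with its parent genes, fell by 1.40 ± 0.34. ATP6V1G2-DDX39B had 0.143 and 0.130 TPM in GD-07 libraries, against 3.47 and 1.02 TPM in controls, so that its log2 fold change was -3.08 with 0.1 TPM added before the log, -0.47 with 5 TPM added and -0.83 without control replicate 1. When control replicate 1 was left out, ZBTB12 and ATP6V1G2-DDX39B had limma adjusted p-values of 0.101 and 0.259 and did not pass. The call of ATP6V1G2-DDX39B was also lost after median-ratio rescaling (0.0557), after quantile normalization (0.0942), without the trend (0.0672) and with 5 TPM added before the log (0.079). Genes that rose, fell or did not pass were interspersed, with HLA-F at one end and TAPBP at the other.

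**Figure D5:**
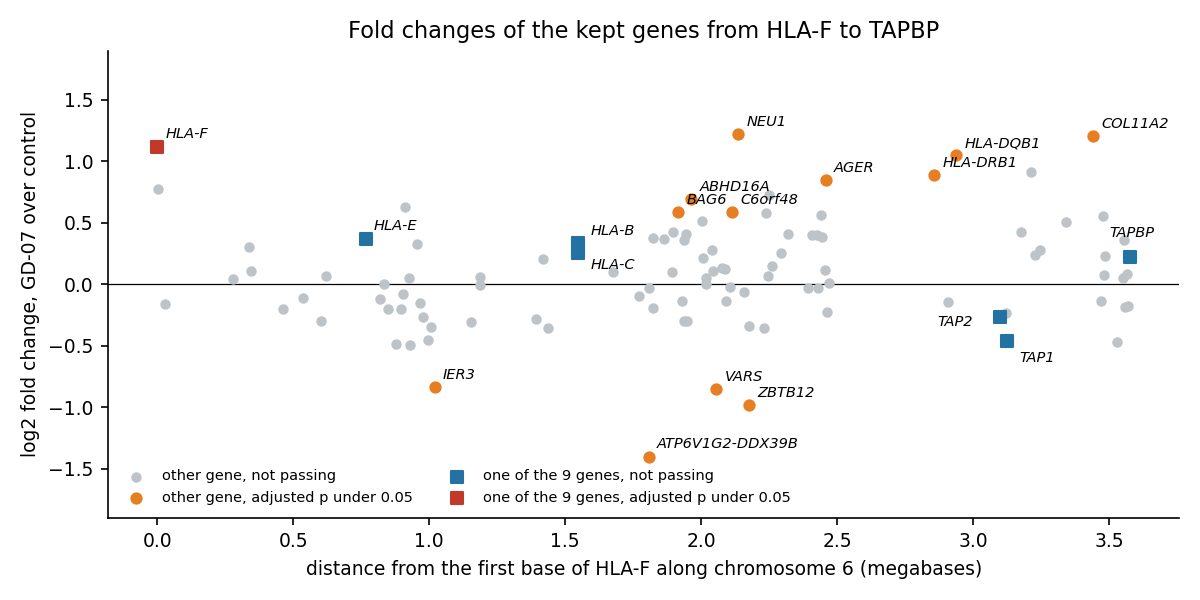
Log2 fold change, GD-07 over control, of the 106 kept genes from HLA-F to TAPBP against distance along chromosome 6 in megabases. Squares are 7 of the 9 genes, of which HLA-F (1.12) passed, and orange circles are other genes past the threshold, 8 of them above and 4 below the zero line.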

How the data were processed

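RNA-seq libraries of A2780 cells were grouped by the labels, 2 with GD-07 and 2 controls. The authors deposited TPM per gene symbol, and no counts are used here. The build GRCh38 and the tools kallisto, Subread and limma (version 3.60.4) are named per the submitters' processing notes, with no role stated for any of them. Symbols with a mean of at least 1 TPM were kept, transformed as log2(TPM + 1) and tested two-sided by lmFit and eBayes with trend (limma 3.58.1, R 4.3.3). Benjamini-Hochberg adjustment covered all kept symbols, and a planted-change simulation was used to test the code. The 9 genes and all lists were chosen with earlier results of these data known. Named are the 9 genes, up to 4 genes past the threshold per related list (otherwise the 2 with the smallest p), up to 6 of the chromosome 6 span, and the 3 with the profile nearest to the mean of the 9. IRF1, MICA, PSMB8, CIITA, HLA-DRA, HFE, COL1A1, EPCAM and the CD1 genes were named outside the rule, after their values were seen. Marker values were planned only at or above 1 TPM, but KRT7, PAX8, WT1, CD3E, MS4A1, VWF and CDH5 are given below it. A gene of the related lists is not reported here and is left out of their counts. Coordinates come from GENCODE 29, promoters from RefSeq on GRCh38.p14. Shared 31-base words were counted on both strands. TPM are relative to each library, so a change of total RNA cannot be seen.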

Additional observations from a re-analysis of the deposited data

How the results depend on the processing

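With no filter on low values limma called 0 of 26773 genes, 0 of the 9, 0 related and 0 in the chromosome 6 span. An unadjusted p under 0.05 was reached there by 3970 of all genes, by 5 of the 9, by 15 related and by 33 in the span, so the calls hold only among kept genes. Over all kept genes 681 passed, 264 higher and 417 lower. Without limma's trend 385 passed, 0 of the 9 (2 at an unadjusted p under 0.05) and 8 in the span. Of the 9 genes 1 passed after median-ratio rescaling and 0 after quantile normalization (5 at an unadjusted p under 0.05), which split all calls into 383 higher and 395 lower. With 1 library left out, limma called 310 to 2217 genes, 2 to 12 related genes, 4 to 28 in the span and 2 to 3 of the 9. The lowest of the first 3 counts came without control replicate 1 and the highest without GD-07 replicate 1, and the lone library is assumed to vary like the other group. TPM keep no depth, so its limit is unknown.

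Same-numbered replicates tended to deviate in opposite directions (r = -0.279 across genes). This correlation cannot decide whether the numbers pair the samples, since deviations of single libraries also enter it. The labels do not say whether they do. With the replicate block 912 genes, 2 of the 9, 3 related and 10 in the span passed, and HLA-DRB1 did not (limma adjusted p = 0.0725). With numbers crossed, tried after seeing the data, 2934 genes, 2 of the 9, 16 related and 24 in the span passed. With 1 library left out, log2 fold changes of TAP1 ran from -0.99 to 0.063, of PDIA3 from -0.0077 to 0.87, of PSMB10 from -0.67 to 0.0042 and of GADD45B from -0.081 to 0.019. Likewise those of IRF1 ran from -0.030 to 0.056, of MICA from -0.064 to 0.27 and of HFE from -0.32 to 0.10. LARP7 turned to 0.012 after quantile normalization, and GADD45B to 0.0022 after median-ratio rescaling and to 0.037 after quantile normalization. The cause was not tested. Among the 48 genes recomputed no other direction changed.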

Other observations

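The mean profile of the 9 genes over the 4 libraries is nearly flat, because B2M and the heavy chains deviate in opposite directions. By Euclidean distance on centred log2(TPM + 1) values over these 4 libraries, LARP7 (0.0187), GADD45B (0.0255) and TUBD1 (0.0259) lay nearest to it, and none of these passed in limma. Chosen after the values were seen, the kept entries nearest to B2M were RP11-1035H13.3 (distance 0.0729), RP11-512M8.5 (0.236) and LARS2 (0.457). LARS2, a mitochondrial leucyl-tRNA synthetase, had 3.51 and 1.21 TPM in GD-07 libraries, against 8.47 and 7.64 TPM in controls. Nearest to HLA-F were SLC41A2 (0.135), HSPA5 (0.178) and ANKRD12 (0.187). HSPA5, the main chaperone of the endoplasmic reticulum, had 204 and 338 TPM in GD-07 libraries, against 126 and 132 TPM in controls (limma adjusted p = 0.0367), and did not pass after quantile normalization (0.0591) or without the trend (0.0696).

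The neighbours of B2M and NLRC5 were also read, likewise after their values were seen. Of 9 kept protein-coding genes within 500000 bases of B2M, SORD, which oxidizes sorbitol, fell and 8 did not pass, with a median log2 fold change of 0.20. SORD did not pass after quantile normalization (limma adjusted p = 0.0616) or without the trend (0.0539). EIF3J, a translation initiation factor gene of that stretch, had 169 and 159 TPM in GD-07 libraries, against 143 and 142 TPM in controls. Of 16 such genes near NLRC5, the metallothioneins MT1A and MT1X rose and 14 did not pass. MT1A had a limma adjusted p of 0.0508 when control replicate 1 was left out. MT1X had 20.5 and 31.5 TPM in GD-07 libraries, against 9.35 and 11.1 TPM in controls (limma adjusted p = 0.0243).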
